A study of Oryza sativa with 12 samples.

Results

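The 7 genes described here encode the replicative helicase of the cell, MCM2 to MCM7, and the sliding clamp PCNA. They were found by name, as the probe sets whose single annotated gene carries one of these names as its symbol or RefSeq synonym. All 7 names matched, each through 1 probe set, among 17905 genes that have a single-gene probe set on the rice array. RefSeq places MCM4 (LOC107275673) on chromosome 1, MCM5 (LOC4331016) and PCNA (LOC4331062) on chromosome 2 with 62 annotated genes between them, and MCM3 (LOC4339099) and MCM6 (LOC4338176) on chromosome 5 with 1198 genes between them. MCM2 (LOC4350526) is on chromosome 11 and MCM7 (LOC4352514) on chromosome 12.

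MCM2 to MCM7 form a ring of 6 different subunits that the origin recognition complex, CDC6 and CDT1 load onto DNA at replication origins before S phase. Joined by CDC45 and the GINS complex, the ring becomes the helicase that unwinds DNA at the fork. PCNA is a ring of identical subunits that the clamp loader RFC closes around DNA, where it tethers DNA polymerases and many repair factors. In plants these genes are known for high transcript levels in dividing cells, such as those of meristems and young organs, and low levels in mature leaf tissue.

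Total RNA from field-grown rice plants of 2 lines was hybridised to 12 single-colour Affymetrix arrays. The lines were KMR3 and the introgression line IL50-7, which the series title describes as high yielding; the introgressed segments and their donor are not given in the labels. The 4 groups were flag leaf and fully emerged young panicle of KMR3 and the same organs of IL50-7, with no treatment named, and each had 3 arrays labelled as biological replicates. The labels do not say whether replicates came from separate plants or pools, so p-values measure the spread between these arrays.

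Values are given as log2 of the deposited intensity after the 12 arrays were set to a common distribution (normalized intensity). The trimmed mean intensity of the arrays as deposited ran from 125 to 296. Background was taken as log2 4.01, an intensity of 16.1, which 95% of the values of 23 controls for sequences that were not spiked in stayed under. Precision is limited by the number of arrays. Of the panicle arrays, 2 went against their line labels. Among 19 probe sets that were on in the leaves of 1 line, off in the leaves of the other and split among the panicles, KMR3 panicle replicate 3 was like its own line's leaves at 1 and IL50-7 panicle replicate 2 at 2, against 16 to 19 on the other 4 panicle arrays. For the libraries labelled KMR3 panicle 3 and IL50-7 panicle 2, counts of calls and the range of the values are therefore also given without both. The ratio of 3′ to 5′ control probe sets, a sign of RNA integrity, was taken for 4 pairs of controls. It ran from 2.54 to 6.32 in leaves and from 7.68 to 23.3 in panicles for 1 GAPDH pair, but overlapped between organs for the other GAPDH pair (1.52 to 12.4 and 0.93 to 20.0) and for both actin pairs (5.17 to 9.397 and 4.95 to 13.4, and 5.85 to 13.6 and 7.99 to 29.4).

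The organ labels were checked against marker genes. Summed over 6 measured leaf photosynthesis genes, the linear normalized intensity ran from 48530 to 52624 in leaves and from 20681 to 33830 in panicles. The sum over 6 genes of shoot and floral meristems ran from 494 to 595 in leaves, where 2 of the 6 were below background in each line, and from 4198 to 6214 in panicles. For 9 genes of tapetum and pollen, the sums were 560 to 698 in leaves, where 4 of them in KMR3 and 3 in IL50-7 were below background on every array, and 9397 to 32465 in panicles.

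The panicle signal of all 7 genes was above that of the flag leaf in both lines, and the flag leaf signal of the 6 MCM genes was mostly at or below background. Of the 36 leaf values of the MCM genes, 3 were above background. Every panicle value of the 7 genes was above background. As deposited, the intensities of the MCM genes ran from 0.304 to 25.7 in leaves and from 88.2 to 454 in panicles, and those of PCNA from 63.9 to 124 and from 407 to 806. PCNA was the only one of the 7 above background on every leaf array, and it too was higher in every panicle than in any leaf.

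**Figure D1:**
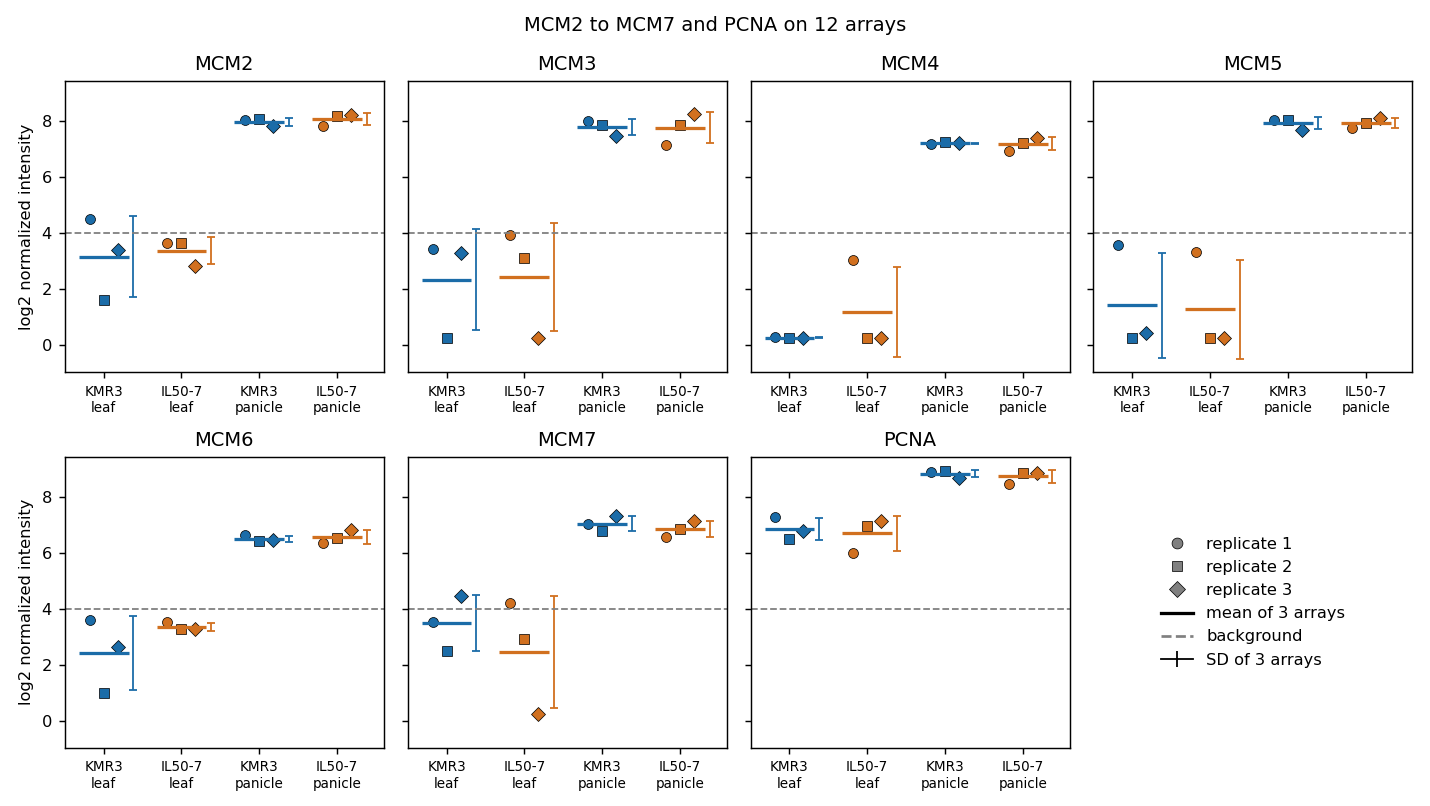
The log2 normalized intensity (vertical axis) of each of the 7 genes on 12 arrays, by line and organ (horizontal axis); symbols are replicates, horizontal lines are means of 3 arrays, bars are SD and the dashed line is background at 4.01. For each gene the 6 panicle points lie above the 6 leaf points, and the panicle points of the lines overlap.

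MCM2, whose interface with MCM5 is known in yeast as the gate through which the ring opens, had leaf values of 4.51, 1.61 and 3.39 in KMR3 and of 3.65, 3.64 and 2.82 in IL50-7. Its panicle values were 8.04, 8.07 and 7.82 in KMR3 and 7.85, 8.20 and 8.21 in IL50-7. Only KMR3 leaf replicate 1 was above background among the leaves, and the organs did not overlap. The IL50-7 panicle mean was at least 16.9-fold above leaf (limma adjusted p = 5.71e-05). Here and below, "at least" marks a lower bound, with the leaf set to background because all 3 leaf arrays were below it. The p beside such a bound tests the difference of normalized values, with leaf values below background kept as they were. It does not test the bound. A gene passed the test at a Benjamini-Hochberg adjusted p under 0.05 over all probe sets tested. In KMR3 the mean moved from 3.17 ± 1.46 to 7.97 ± 0.14 (SD, n = 3; limma adjusted p = 5.08e-05). No fold is given there because the leaf mean was below background while 1 of its 3 arrays was above it.

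MCM5, the other side of that gate, had leaf values of 3.58, 0.26 and 0.42 in KMR3 and of 3.33, 0.26 and 0.26 in IL50-7. Here 0.26 is the floor applied to the lowest values, which have no order among themselves. Its panicle values were 8.04, 8.06 and 7.69 in KMR3 and 7.77, 7.96 and 8.11 in IL50-7. Replicate 1 of each line was the high one among the leaves, yet all 6 leaf arrays were below background. The panicle was at least 15.2-fold higher in KMR3 (limma adjusted p = 0.000183) and at least 15.3-fold higher in IL50-7 (limma adjusted p = 0.000153).

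MCM3, which sits beside MCM5 in the ring, had leaf values of 3.44, 0.26 and 3.31 in KMR3 and of 3.95, 3.11 and 0.26 in IL50-7, all below background. Its panicle values were 8.02, 7.87 and 7.46 in KMR3 and 7.17, 7.86 and 8.27 in IL50-7. The IL50-7 panicles held both the lowest and the highest of these 6, with an SD of 0.56 against 0.29 in KMR3. The panicle was at least 13.7-fold higher in KMR3 (limma adjusted p = 0.000793) and at least 13.5-fold higher in IL50-7 (limma adjusted p = 0.000932).

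MCM4, MCM6 and MCM7 are the subunits that were first purified together as a subcomplex with helicase activity, from human cells. MCM4 was at or next to the floor on 5 of 6 leaf arrays. On those arrays its spread was set by the floor (SD 0.01 in KMR3 leaves), and that spread enters the p below. The leaf values of MCM4 were 0.28, 0.26 and 0.26 in KMR3 and 3.04, 0.26 and 0.26 in IL50-7, so IL50-7 leaf replicate 1 alone stood off the floor, and it too was below background. On panicle arrays MCM4 stood at 7.20, 7.24 and 7.21 in KMR3 and at 6.96, 7.23 and 7.42 in IL50-7. The panicle was at least 9.25-fold higher in KMR3 (limma adjusted p = 8.11e-06) and at least 9.14-fold higher in IL50-7 (limma adjusted p = 2.21e-05).

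MCM6 had leaf values of 3.61, 1.01 and 2.64 in KMR3 and of 3.53, 3.28 and 3.28 in IL50-7, all below background. In panicles its values were 6.64, 6.42 and 6.46 in KMR3 and 6.34, 6.53 and 6.84 in IL50-7. The KMR3 panicle mean was at least 5.64-fold above leaf (limma adjusted p = 9.27e-05) and that of IL50-7 at least 5.90-fold (limma adjusted p = 0.000502), the smallest bounds among the MCM genes that have one.

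MCM7 had leaf values of 3.54, 2.48 and 4.46 in KMR3 and of 4.20, 2.92 and 0.26 in IL50-7. In panicles it read 7.03, 6.78 and 7.31 in KMR3 and 6.58, 6.85 and 7.13 in IL50-7. KMR3 leaf replicate 3 and IL50-7 leaf replicate 1 were above background, and every panicle was above both. The KMR3 mean went from 3.49 ± 0.99 in leaf to 7.04 ± 0.27 in panicle (SD, n = 3; limma adjusted p = 0.00423), and the IL50-7 mean from 2.46 ± 2.01 to 6.85 ± 0.28 (SD, n = 3; limma adjusted p = 0.00114). No fold is given, for the same reason as for MCM2.

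PCNA, the clamp, was measured above background on all 12 arrays. Its leaf values were 7.30, 6.51 and 6.77 in KMR3 and 5.996, 6.96 and 7.14 in IL50-7. Its panicle values were 8.90, 8.93 and 8.70 in KMR3 and 8.47, 8.86 and 8.87 in IL50-7. The panicles were the tighter organ, and IL50-7 replicate 1 was the lowest in leaf and in panicle alike. The panicle was 3.95-fold higher in KMR3 (log2 difference 1.98 ± 0.30 SE, 95% interval 1.32 to 2.64, limma adjusted p = 0.00028) and 4.10-fold higher in IL50-7 (2.04 ± 0.30 SE, 95% interval 1.38 to 2.70, limma adjusted p = 0.000231).

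All 7 genes passed the test for higher signal in the panicle in each line, where 22.5% of the 34316 probe sets tested passed it in KMR3 and 22.4% in IL50-7. In all 7 the arrays of the organs did not overlap, against a background of 27.8% in KMR3 and 25.6% in IL50-7, and 19.5% of probe sets had every panicle array above every leaf array. For 5 of the 7, the leaf mean lay below the filter on dim probe sets (log2 3.06), so they entered the test only through the panicle and had to differ. The count of 7 is therefore a description and no support. With arrays below background set to it, the differences of the 7 ran from 1.98 to 3.92 in KMR3, with a median of 3.21, and from 2.04 to 4.08 in IL50-7, with a median of 3.19. The medians over all probe sets tested on that scale were -0.07 and -0.04.

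In whole organs, fewer cells of a type and less RNA per cell cannot be told apart. The ratio of 1 of the 4 control pairs and the meristem, tapetum and photosynthesis sums given above moved with organ beside these genes. The second actin pair did so too except on IL50-7 panicle 3 (7.99), with 5.85 to 13.6 in leaves and 18.7 to 29.4 in the remaining panicles. The other pairs overlapped more widely. The part of all these in the result was not tested. Without the libraries labelled KMR3 panicle 3 and IL50-7 panicle 2, all 7 genes still passed in each line, with a highest adjusted p of 0.022 in KMR3 and 0.00669 in IL50-7 (limma). Their differences, with arrays below background set to it, then moved by -0.14 (MCM7 in KMR3) to 0.16 (MCM3 in KMR3). None of the 7 changed direction when values were left as deposited or arrays were set to equal medians. Over all the refits tried, organ calls over all probe sets, higher or lower, ran from 13064 to 18745 in KMR3. In IL50-7 they ran from 11387 to 18339.

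The order of the 4 groups had both panicles above both leaves for each of the 7 genes. Within the panicle, KMR3 had the higher mean for MCM3, MCM4, MCM7 and PCNA, and IL50-7 for MCM2, MCM5 and MCM6. Within the leaf, KMR3 had the higher mean for MCM5, MCM7 and PCNA and IL50-7 for the other 4. None of these neighbouring line means differed beyond the spread of the arrays.

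The line comparison asks whether the introgression line differed from KMR3 in the same organ. In the panicle the line means of the 7 genes lay within 0.19 of each other on the log2 scale, and none passed the test. The largest panicle difference was that of MCM7, 7.04 ± 0.27 in KMR3 and 6.85 ± 0.28 in IL50-7 (SD, n = 3), a log2 difference of -0.19. That of MCM2 was 0.11 and that of PCNA -0.11. MCM6 differed by 0.07, MCM5 by 0.02, MCM3 by -0.02 and MCM4 by -0.02. The adjusted p rounded to 1 for all 7 (limma), none had an unadjusted p under 0.05, and the lines overlapped for all 7, where 9.22% of probe sets did not overlap. Over all probe sets, 0.0% were called between the panicles by limma, while 1128 had an unadjusted p under 0.05.

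A p that misses the threshold does not show equal levels, so the intervals are given too. Fitted on the 6 panicle arrays alone, the 95% intervals of the log2 difference were -0.33 to 0.55 for MCM2, -0.79 to 0.76 for MCM3 and -0.47 to 0.43 for MCM4. For MCM5 the interval was -0.44 to 0.48, and for MCM6 it was -0.43 to 0.56. MCM7 had the interval -0.75 to 0.38 and PCNA -0.54 to 0.33. The widest, that of MCM3, ran from 1.73-fold lower to 1.69-fold higher in IL50-7. Fitted on all 12 arrays, where the scattered leaf values enter the spread, the interval of MCM3 was -2.14 to 2.10.

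**Figure D2:**
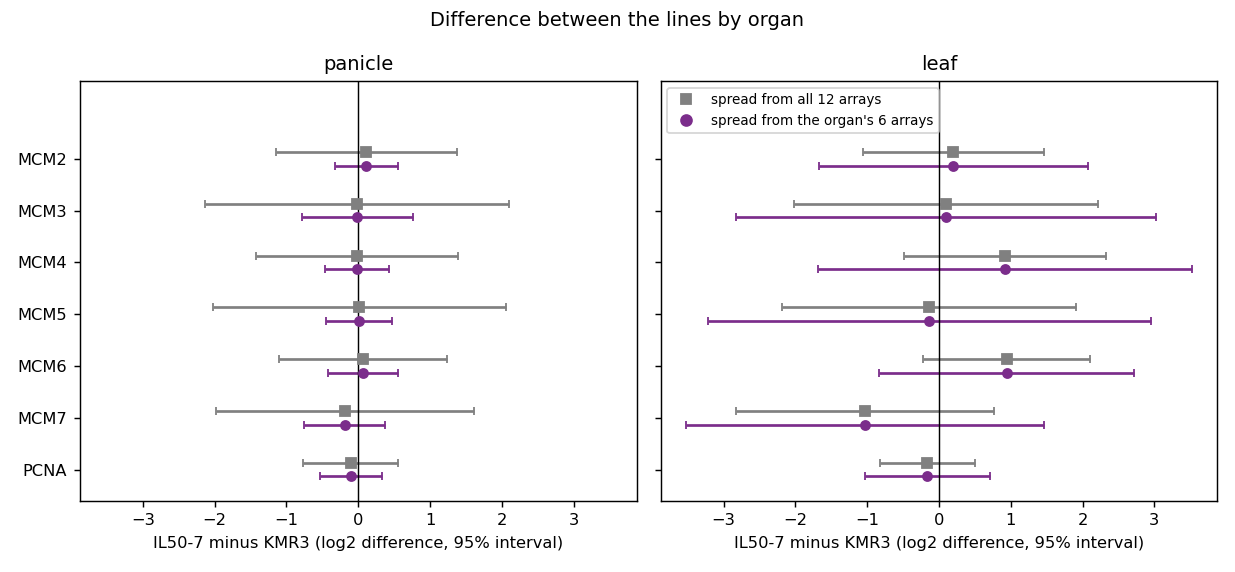
IL50-7 minus KMR3 (horizontal axis, log2 difference) for each of the 7 genes (vertical axis) in panicle and leaf; bars are 95% intervals with the spread taken from all 12 arrays (squares) or from the 6 arrays of the organ (circles). Every interval includes 0, and in the panicle those from its own 6 arrays are the narrower, none reaching past -0.79 or 0.76.

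Because the 2 doubted panicle libraries carry opposite line labels, the panicle comparison was also made without them, on 2 panicle arrays a line. The leaf arrays stayed in that fit, so their scattered values enter its spread. None of the 7 genes passed, and their differences ran from -0.24 for PCNA to 0.06 for MCM6 (lowest limma adjusted p = 0.994). The 95% intervals were wider in that fit, -3.10 to 2.65 for MCM3 and -1.14 to 0.66 for PCNA. Over all probe sets 128 were then called between the panicles.

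In the flag leaf the line means of the 6 MCM genes were all below background, so no fold is given. PCNA stood at 6.86 ± 0.40 in KMR3 leaves and at 6.70 ± 0.61 in IL50-7 leaves (SD, n = 3), a log2 difference of -0.16 ± 0.30 SE with a 95% interval of -0.82 to 0.50 (limma adjusted p = 1). Fitted on the 6 leaf arrays alone, the PCNA interval was wider, -1.03 to 0.71. None of the 7 genes passed in the leaf, where 0.0729% of probe sets did, and none had an unadjusted p under 0.05. The leaf arrays of the lines overlapped for all 7, against 9.17% of probe sets without overlap. The interaction of line and organ was called for none of the 7 (0.0291% of probe sets; none at an unadjusted p under 0.05), with values from -0.94 for MCM4 to 0.84 for MCM7, which rest on leaf values most of which were below background. When IL50-7 leaf 1 was left out the value of MCM4 became -0.01, and when IL50-7 leaf 2 or leaf 3 was left out it became -1.41. The value of MCM7 changed sign, to -0.26, when IL50-7 leaf 3 was left out, and became 1.72 in the absence of IL50-7 leaf 1. Omitting KMR3 leaf 3 gave 0.36 for MCM7, and omitting KMR3 leaf 2 gave 1.36. Without both doubted libraries none was called, and the values of the 7 ran from -0.95 to 0.98.

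Each gene's spread over the panicle arrays was also taken. The range of log2 values over the 6 arrays was 0.40 for MCM2, the smallest, and 1.11 for MCM3, the largest, with a median of 0.46. That is 1.32-fold to 2.15-fold between the highest and the lowest panicle. Over the 23995 tested probe sets above background on every panicle array, the median range was 0.80 and the quartiles were 0.51 and 1.21. For 6 of the 7 genes the range was below that median. Over the 4 panicle arrays that are not doubted, the ranges of the 7 ran from 0.34 for MCM5 to 1.11 for MCM3, with a median of 0.46, and the median over those probe sets was 0.68.

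The arrays at the ends were mostly the same for several genes, and both belonged to IL50-7. IL50-7 panicle replicate 3 was the highest of the 6 for MCM2, MCM3, MCM4, MCM5 and MCM6 and above the panicle mean for all 7, by 0.23 on average. IL50-7 panicle replicate 1 was the lowest for MCM3, MCM4, MCM6, MCM7 and PCNA and below the panicle mean for all 7, by 0.30 on average (mean deviation -0.30). The library labelled KMR3 panicle 3 was the lowest for MCM2 and MCM5 and the highest for MCM7. PCNA was highest in KMR3 panicle replicate 2.

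Other gene lists moved on the same arrays. The 8 genes of the mitotic list were on average 0.11 above their panicle means in IL50-7 panicle 3 and -0.20 from them in IL50-7 panicle 1, where all 8 were below. The 7 tapetum and pollen genes above background on every panicle array stood 1.53 below their means in IL50-7 panicle 3 (mean deviation -1.53) and 0.93 above them in IL50-7 panicle 1. The 6 meristem genes deviated by -0.09 and -0.05 on those arrays, and 5 photosynthesis genes by 0.25 and -0.86. On IL50-7 panicle 3 the 3′ to 5′ ratios of the GAPDH pairs were 7.68 and 20.0, the lowest and the highest among the panicles. Those of the actin pairs were 4.95 and 7.99, each the lowest among the panicles. On IL50-7 panicle 1 the ratios were 8.72 and 3.28 for GAPDH and 6.23 and 18.7 for actin, next lowest for the first GAPDH pair and both actin pairs. The part of any of these in the spread of the 7 genes was not tested.

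**Figure D3:**
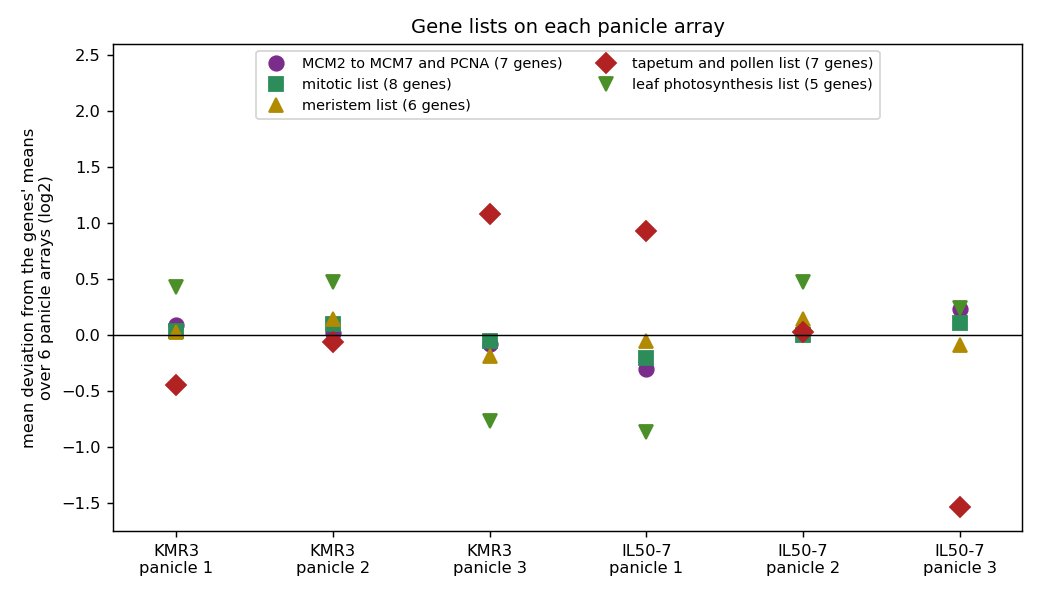
The mean deviation (vertical axis, log2) of each gene list from its genes' own means over the 6 panicle arrays, on each panicle array (horizontal axis). The mean over the 7 MCM and PCNA genes stays between -0.30 and 0.23 and lies near that of the mitotic list, while that of the tapetum and pollen list runs from -1.53 to 1.08.

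The other genes of DNA replication were taken from a list of 82 names, of which 33 matched 28 genes, and 26 were tested. In KMR3, 13 were higher in the panicle, 1 was lower and 12 did not pass the test, where 7727 of all probe sets were higher and 8587 lower. In IL50-7, 11 were higher, 2 were lower and 13 did not pass, against 7675 and 7960 of all probe sets. With arrays below background set to it, the median difference was 0.38 in KMR3 and 0.56 in IL50-7. Of its 27 measured genes, 7 were below background on every leaf array of KMR3 and 7 on those of IL50-7 (MCM8, among them, was too dim to be tested). Of the 26 tested, ORC1, MCM9, RPA1B, RPA2C and RBR1 had a leaf mean below the filter and entered through the panicle. The range of calls over all probe sets in the refits is given above. Without both doubted libraries, 10 of 25 tested genes passed in KMR3 and 9 of 25 in IL50-7, higher and lower together (limma). The values of the genes named from the list then moved by -0.44 to 0.38, both for RFC3.

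Single-strand DNA at the fork is covered by replication protein A (RPA), a trimer with several genes for its large and middle subunits in rice. RPA1B, a large subunit gene, was higher in the panicle by at least 5.96-fold (KMR3) and by at least 3.91-fold (IL50-7). RPA2A, a middle subunit gene, was at least 6.93-fold higher in KMR3, and in IL50-7 its mean went from 3.65 to 6.67. RPA2C, another middle subunit gene, went from 2.74 to 7.03 in KMR3 and was at least 7.99-fold higher in IL50-7. All of these passed the test in both lines (limma). RPA1A, a second large subunit gene, did not pass in either line, with log2 differences of -0.36 and -0.12, the first of which became 0.17 with values as deposited and 0.01 with equal medians, and the second 0.12 with values as deposited. RPA2B, picked after its values were seen, did not pass either (0.24 and 0.34, or -0.10 and 0.70 without both doubted libraries). RPA1C, another large subunit gene picked in the same way, was above background on every array. It passed in both lines, 3.42-fold higher in KMR3 panicles and 3.11-fold higher in IL50-7 panicles.

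The origin recognition complex marks the sites where the MCM ring is loaded. ORC1 (LOC4340349), its large subunit, was below background on all leaf arrays and higher in the panicles, by at least 1.88-fold in those of KMR3 and by at least 1.46-fold in those of IL50-7. The KMR3 call of ORC1 was lost without KMR3 leaf replicate 3 (adjusted p = 0.0735), without KMR3 panicle replicate 1 (0.0583) and without both doubted libraries (0.0619), by limma. Its IL50-7 call was lost without IL50-7 leaf replicate 2 (limma adjusted p = 0.12), without any 1 of the 3 IL50-7 panicles (0.0631 to 0.083) and without both doubted libraries (0.103). ORC2 was lower in IL50-7 panicles (log2 difference -0.85 ± 0.30 SE, limma adjusted p = 0.038) and did not pass in KMR3 (-0.44), where values as deposited gave 0.19 and equal medians 0.03. The ORC2 call in IL50-7 was lost with values as deposited (limma adjusted p = 0.426) and equal medians (0.133). It was also lost without KMR3 panicle 1 (0.0513), IL50-7 leaf 2 (0.123), IL50-7 leaf 3 (0.109), IL50-7 panicle 2 (0.102) or IL50-7 panicle 3 (0.137), and without both doubted libraries (0.107). ORC5 (LOC4334180) differed by -0.05 and -0.24 and did not pass. ORC4, picked after its values were seen, was above background on every array. It was higher in the panicle by 2.30-fold in KMR3 (limma adjusted p = 0.00546) and by 1.78-fold in IL50-7 (0.036). A dimmer tested probe set of ORC4 (mean log2 4.03) is not shown. ORC3, picked in the same way, did not pass in either line.

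The clamp loader RFC opens the PCNA ring. Its small subunit gene RFC3 went opposite to PCNA, with panicle values 3.19-fold lower than leaf in KMR3 (log2 difference -1.67 ± 0.42 SE, limma adjusted p = 0.00672) and 2.48-fold lower in IL50-7 (-1.31 ± 0.42 SE, limma adjusted p = 0.0244). With values as deposited neither passed (-1.15, limma adjusted p = 0.0518, and -1.02, 0.0926), and with equal medians the IL50-7 call was lost (0.066). It was also lost without IL50-7 leaf 2 (0.0796), IL50-7 leaf 3 (0.0624), IL50-7 panicle 1 (0.0924) or IL50-7 panicle 3 (0.0579). RFC5, another small subunit, did not pass (-0.29 and 0.00), and the first became 0.32 with values as deposited and 0.16 with equal medians. RFC4, picked after its values were seen, was higher in the panicle like PCNA, by 2.13-fold in KMR3 and 3.42-fold in IL50-7.

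POLD2, a subunit of DNA polymerase delta that works with PCNA, was 3.13-fold higher in KMR3 panicles and 5.45-fold higher in IL50-7 panicles, where 1 of 3 leaf arrays was below background. With that array set to background, the IL50-7 log2 difference of 2.45 became 2.39. POLD1, its catalytic subunit, picked after its values were seen, differed by -0.03 and 0.38 and did not pass. RBR1, a retinoblastoma-related gene whose products restrain E2F factors, was below background in all leaves, with a panicle mean above leaf by at least 4.16-fold (KMR3) and by at least 4.03-fold (IL50-7). These RBR1 values are from its brighter probe set, and the other (mean log2 2.55) was too dim to be tested. RBR2, picked after its values were seen, differed by 0.18 and 0.11 and did not pass. Between the lines, 0 of the 26 passed in leaf or panicle and 0 for the interaction (limma). An unadjusted p under 0.05 was seen for 5, 0 and 0 of them, and for 4.85%, 3.29% and 3.91% of all probe sets.

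The mitotic list, with cyclins and kinases of the cell cycle and the centromere histone CENH3, had 8 tested genes of 30 names. In each line 6 of the 8 were higher in the panicle and 0 lower, where 22.5% and 22.4% of all probe sets were higher (limma). With both doubted libraries left out, 6 of 8 passed in each line, higher and lower together (limma). CYCB2-2, a B-type cyclin whose leaf mean was below the filter, was higher by at least 6.14-fold (KMR3) and by at least 4.80-fold (IL50-7). A dimmer probe set of CYCB2-2 (mean log2 2.85) was not tested. CYCB2-1 went from 3.72 to 7.13 in KMR3 and was at least 9.16-fold higher in IL50-7. CYCB1-1 (LOC4327547), another, went from 3.70 to 7.63 in KMR3 and was 8.79-fold higher in IL50-7, where 1 of 3 leaf arrays was below background. Its IL50-7 log2 difference of 3.14 became 3.10 with that array set to background. CDKB2-1, a plant mitotic kinase, went from 3.26 to 6.94 and from 3.70 to 7.07. CYCA2-1 went from 3.61 to 6.51 and from 3.87 to 6.82. CYCA3-2 was 2.30-fold higher in KMR3 and went from 4.005 to 5.66 in IL50-7. CENH3 (0.59 and 0.60) and CYCB1;1 (LOC4326914), the other 2 tested genes of the list and outside the rule for named genes, did not pass in either line. Without both doubted libraries the values of the 8 moved by -0.14 to 0.23. With arrays below background set to it, the median difference of the list was 2.47 in KMR3 and 2.41 in IL50-7.

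**Figure D4:**
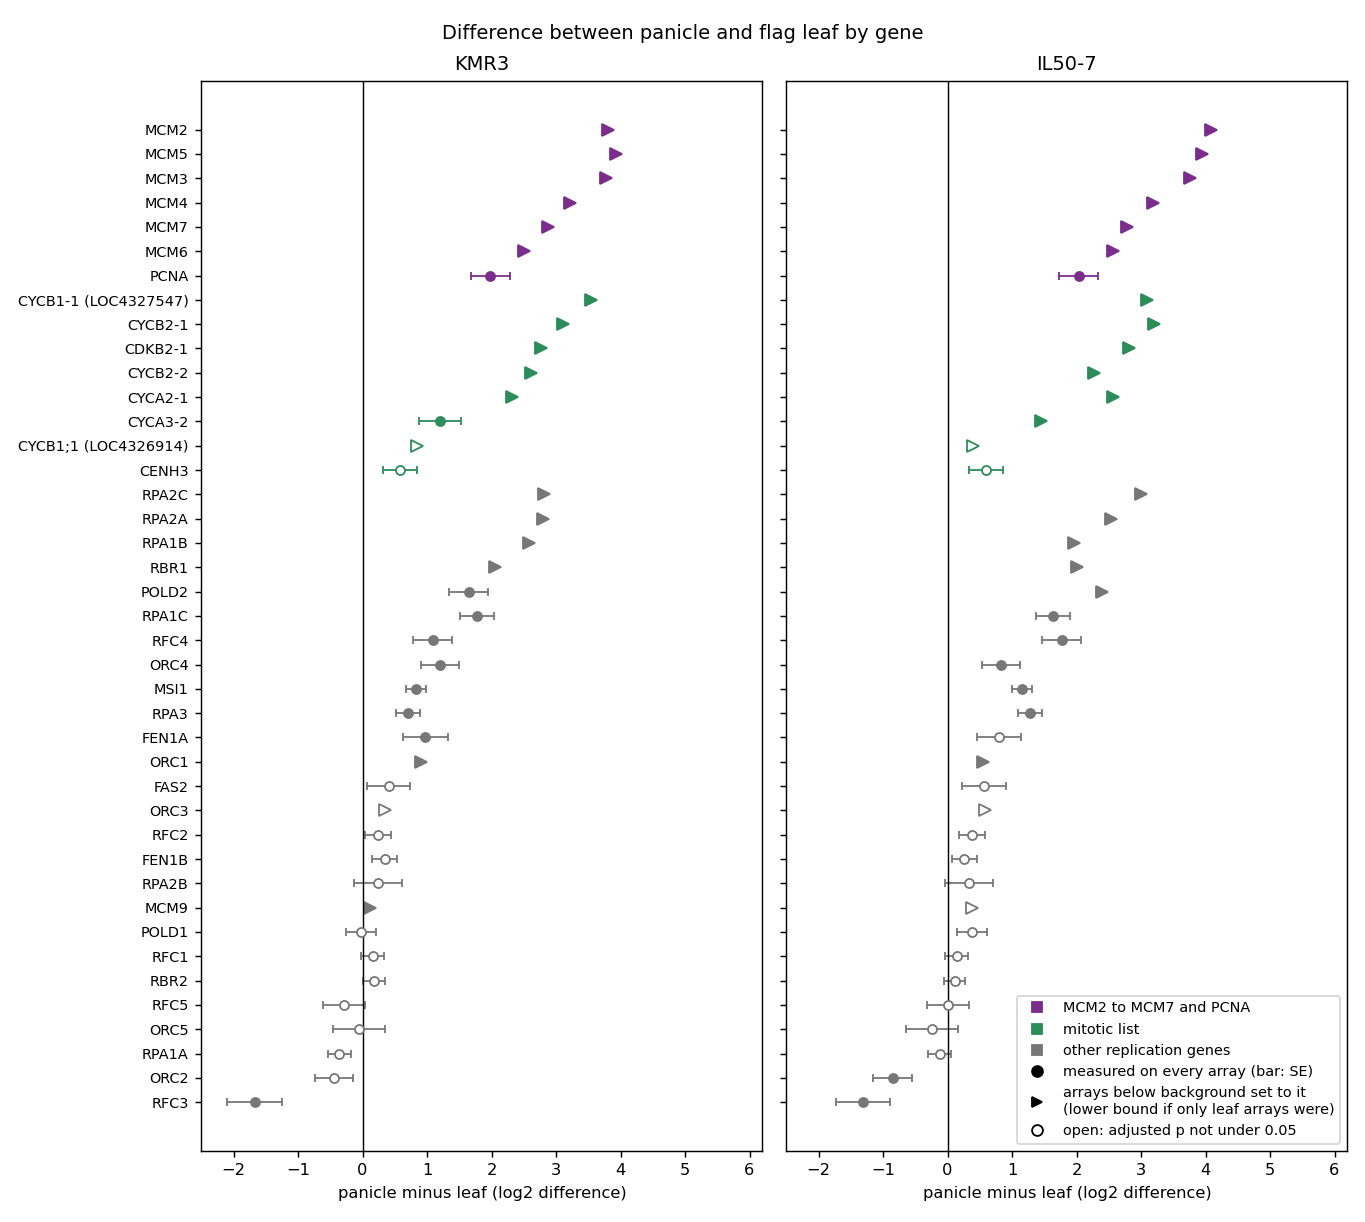
Panicle minus leaf (horizontal axis, log2 difference) in KMR3 and IL50-7 for the 7 MCM and PCNA genes, the mitotic list and the other replication genes (vertical axis); circles are measured on every array with SE bars, triangles have arrays below background set to it, and open symbols did not pass the test. The 7 genes lie between 1.98 and 4.08, and RFC3 is the lowest point in both lines.

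The genes whose profile was most like the mean of the 7 were sought over the 12 arrays, by the root mean square difference (log2) of profiles centred on their own means, among 16484 genes. The nearest were LOC4352388 (0.31), LOC4333309 (0.38), LOC4340662 (0.42), LOC4328927 (0.45) and LOC4339236 (0.46), none of which has a synonym in the RefSeq table, against a median of 2.42 over the probe sets compared. Within the 7, the same measure against the mean of the other 6 ran from 0.38 for MCM2 to 1.76 for PCNA, whose leaf values were above background. Of the listed genes, CYCB1-1 ranked 77, CYCB2-2 ranked 109 and RPA1B ranked 164 among the 19867 probe sets compared. All profiles share the 12 arrays and the contrast between organs, and leaf values below background enter them.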

How the data were processed

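The authors deposited 1 linear intensity per probe set and array, made with GCOS 1.2 per the submitters' processing notes; the sources used here do not give its settings. The 57381 deposited intensities per array were taken to log2, quantile normalized and floored at the 10th percentile (0.26). Then 187 control probe sets were removed and the 34316 of 57194 probe sets with a mean above the 40th percentile were tested with limma 3.58.1 in R 4.3.3 (4 group means, trended prior, Benjamini-Hochberg over all tested, adjusted p under 0.05). A bound ("at least") sets each dim array to background where all 3 were below it. The fit was tested on simulated data, with changes planted only in probe sets brighter on average than the MCM genes. That test does not cover groups with values at the floor or below background. Genes were named from the platform annotation and RefSeq assembly ASM3414082v1, whose coordinates are not used because the array's build is not given. Listed genes with more than 1 probe set are shown by the one with the highest mean. Members and lists were chosen with earlier results of these data known. Named from each list were up to 6 genes with the largest mean organ difference each way, any called between lines, and the 5 nearest profiles. Same-numbered replicates did not pair: 4 of 18 pairs correlated above 0.1 (-0.33 to 0.40). Alternatives in scaling, filter, floor, prior, weights, block, samples and replicates were tried.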

Additional observations from a re-analysis of the deposited data

How the results depend on the processing

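The 7 MCM and PCNA genes were higher in the panicle in all 330 refits in which they were tested, with a highest limma adjusted p of 0.0271. For 5 of the 7, the leaf mean lay below the filter used above, so under it they had to differ. This count and those of the 7 below are therefore a description and no support. Leaving out 1 replicate at a time kept 7 to 7 of them past the threshold in each line, 10 to 14 replication genes in KMR3 and 9 to 15 in IL50-7, and 0 in the line and interaction comparisons. With the filter at the 60th percentile 4 of the 7 were tested and passed in KMR3 and 4 in IL50-7, and 9 replication genes passed in KMR3, since fewer probe sets were tested. With the replicate number as a block, 7 of the 7 genes passed in each line and 0 between lines, and 14 and 12 replication genes passed; the IL50-7 call of ORC2 was lost (adjusted p = 0.0601), as it was with no filter (0.0549) and with only the arrays compared (0.0863). ORC1 in IL50-7 was also lost with no filter (0.053). The median of all probe sets for panicle minus leaf in KMR3 was -0.11 as reported, 0.31 with values as deposited and 0.15 with equal medians, and in IL50-7 -0.06, 0.15 and -0.00. The split of higher and lower calls moved with it, from 7727 and 8587 to 8874 and 4190 or 8548 and 5702 in KMR3, and from 7675 and 7960 to 6682 and 4705 or 6527 and 6254 in IL50-7. Probe sets called between leaves numbered 25 as reported, 15 with values as deposited or the 60th percentile filter, 74 with array weights, 59 without both doubted libraries and 11 to 84 without 1 replicate. Between panicles they numbered 0, 1 with no filter, 128 without both doubted libraries and 0 to 1 without 1 replicate. For the interaction they numbered 10, 2 with values as deposited or no filter, 4 with the 60th percentile filter or the block, 3 without both doubted libraries and 1 to 16 without 1 replicate. Leaf values of the MCM genes below background limit what can be said of lines in the leaf.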
